A study of Homo sapiens with 6 samples.

Results

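The genes described here are the growth factors of the EGF family, the ERBB receptors that bind them, and ERRFI1, an inhibitor of those receptors. The members were HBEGF, AREG, EREG, TGFA, BTC and NRG1 among the ligands, EGFR, ERBB2 and ERBB3 among the receptors, and ERRFI1. A probe set, the group of probes that reports 1 transcript or a few related ones, was taken as a member when the platform annotation gave it exactly 1 gene symbol and that symbol was in the list. This gave 37 of 49395 probe sets on the array, and they covered 9 of the 10 genes. AREG, which encodes amphiregulin, had no probe set that carried its symbol alone and was not analysed. The cells were HMEC-1, an established line of human microvascular endothelium that carries a viral oncogene, grown without serum. In 3 samples they had received EPC-Exos at 1e+11 particles per mL for 24 hours, and in 3 samples PBS of equal volume for 24 hours. The labels do not expand EPC-Exos, which in this study is known to stand for exosomes of endothelial progenitor cells. Both groups are the same line, and both lacked serum, a usual source of growth factors. The labels do not say whether the samples were separate cultures, so the p-values rest on a spread between arrays that may be technical only.

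EGF family ligands are made as membrane-anchored precursors, and metalloproteases of the ADAM family release the active growth factor from the cell surface. HBEGF, AREG, EREG, TGFA and BTC bind EGFR, and NRG1 binds ERBB3 and ERBB4. Ligand binding pairs the receptors. ERBB2 has no known ligand of its own and acts as the preferred partner of the others, and ERBB3 has little kinase activity and signals through its partner. Paired receptors feed the RAS to ERK cascade and the PI3K arm, and ERRFI1, itself induced by this signalling, binds the kinase domain and shuts the receptor off. Endothelial cells are known both to release HBEGF and to carry EGFR family receptors.

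Array medians lay between 6.25 and 6.34 on the log2 scale, and no array stood apart: arrays of one group correlated at 0.997 and those of different groups at 0.988 to 0.989 over the non-control probe sets. As a guide to background, the highest mean among the 17 Tag controls, whose probes have no human target, was a log2 signal of 4.97, called the Tag level here. Of 10 endothelial markers, 7 lay above it in each group, while CDH5, TEK and CLDN5 did not in either. Of the 7, PECAM1 lay nearest to the Tag level, at mean log2 signals of 5.23 with EPC-Exos and 5.18 with PBS. Of 7 measured epithelial markers 5 lay above that level in each group, KRT5 nearest to it (5.17 with EPC-Exos and 5.21 with PBS). They were led by KRT18, which the line expressed at a mean log2 signal of 11.82 with EPC-Exos and 12.53 with PBS. In bulk RNA, fewer cells of a type and less RNA per cell cannot be told apart.

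After EPC-Exos the ligand genes HBEGF and TGFA rose 1.68-fold and 1.62-fold, the receptor gene EGFR rose 1.27-fold, ERBB2 fell 1.19-fold, and ERRFI1 rose 1.12-fold. These values come from the probe set of each gene with the highest mean signal, in a fit over all genes whose mean log2 signal was at least 5.45. Of the 9 measured members 6 passed that filter, which uses the mean of all 6 arrays, and EREG, BTC and ERBB3 did not. With limma and Benjamini-Hochberg adjustment over all 11715 genes tested, 4 of the 6 were higher, 1 was lower, and NRG1 was not called. Among all genes tested 49.1% were called, 21.7% higher and 27.3% lower. The median log2 change was 0.26 over the 6 members and -0.01 over all genes tested. The groups did not overlap in 5 of the 6, against 55.7% of all genes tested. The study's own threshold (1.5-fold or more, and p under 0.05 before adjustment) was passed by HBEGF and TGFA; 9.89% of genes passed it, 3.94% higher and 5.96% lower. By size of change regardless of direction, HBEGF exceeded 94% of the genes tested, TGFA 92.9%, EGFR 75%, ERBB2 62%, ERRFI1 48% and NRG1 47.8%.

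**Figure D1:**
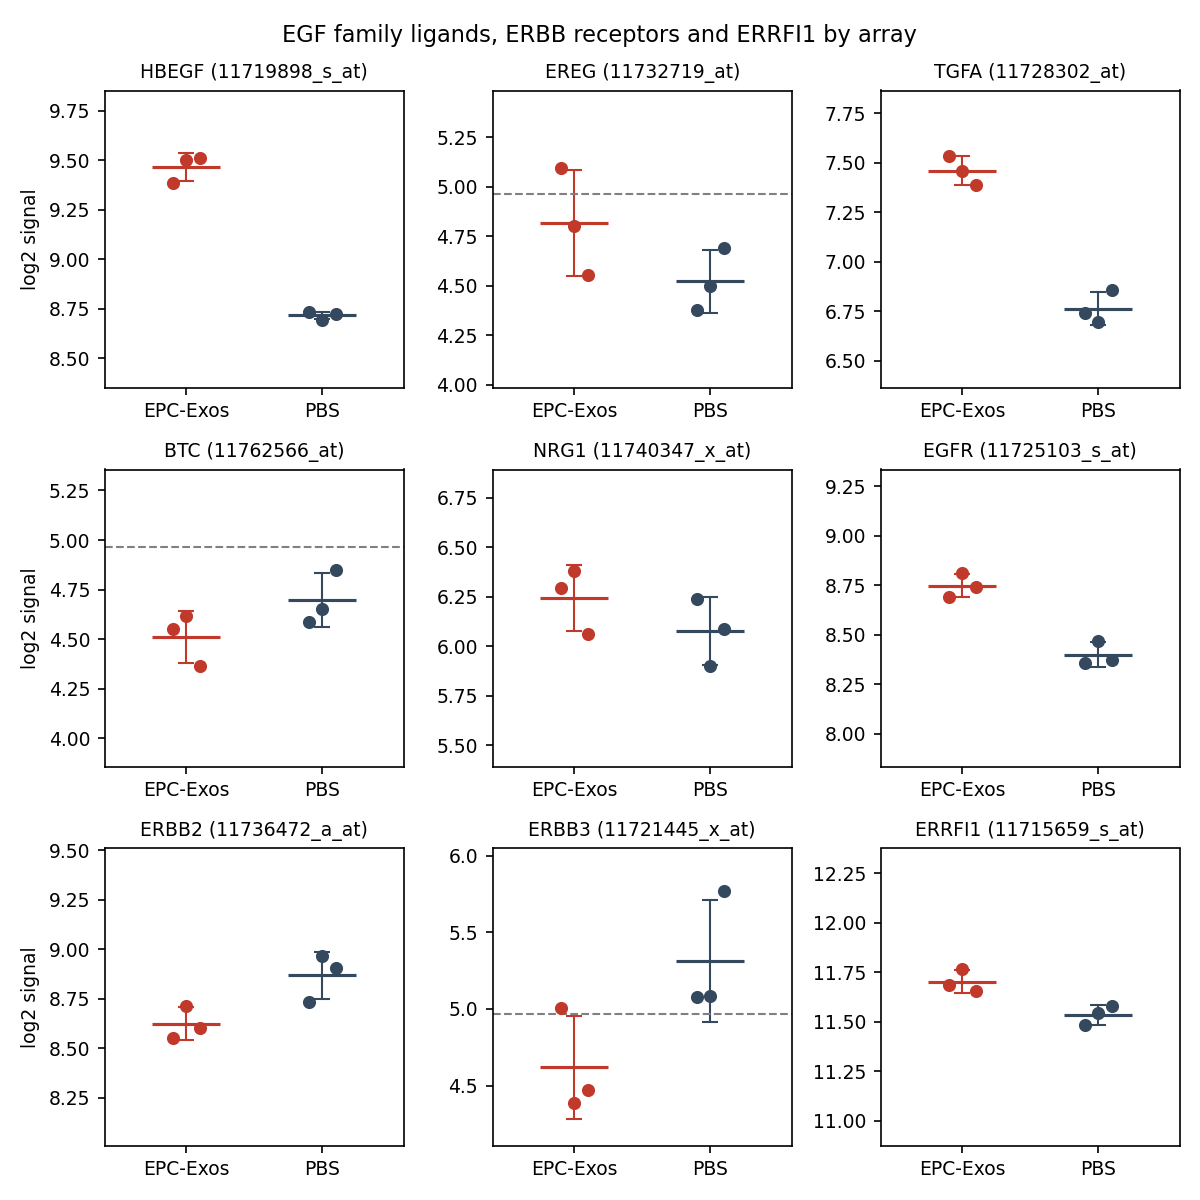
Log2 signal of each array for the highest probe set of the 9 measured genes, EPC-Exos left and PBS right in each panel; points are arrays, bars the mean and SD (n = 3 per group), and the dashed line the Tag level of 4.97 where it falls in range. The groups stand clear of each other for HBEGF (9.38 to 9.51 against 8.70 to 8.73) and TGFA, while EREG and BTC lie near or below the Tag level. For EGFR, ERBB2, ERBB3 and ERRFI1 the groups do not overlap either, with narrower gaps. Groups did not overlap in 55.7% of all genes tested.

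HBEGF encodes heparin-binding EGF-like growth factor, whose membrane form is also the cell's receptor for diphtheria toxin. Its brightest probe set, 11719898_s_at, had log2 signals of 9.38, 9.50 and 9.51 with EPC-Exos, against 8.73, 8.70 and 8.72 with PBS. Every EPC-Exos array was above every PBS array, and the gap was far wider than the spread inside either group. The means were 9.46 ± 0.070 with EPC-Exos and 8.72 ± 0.020 with PBS (SD, n = 3 each), a log2 change of 0.75 ± 0.063 (SE) with a limma adjusted p of 4.82e-08. The other HBEGF probe set, 11755981_a_at, gave log2 signals of 6.96, 6.91 and 7.10 with EPC-Exos, against 6.10, 6.23 and 6.15 with PBS. The groups were again apart, with a log2 change of 0.83 ± 0.099 (SE), so both probe sets moved alike. In the limma fit over all probe sets their adjusted p were 4.14e-08 and 3.3e-06, and both were called in 6 of 6 fits that each left out 1 array.

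TGFA encodes transforming growth factor alpha, a ligand of EGFR. Its brightest probe set, 11728302_at, read 7.53, 7.46 and 7.39 in log2 signal with EPC-Exos and 6.74, 6.69 and 6.85 with PBS. The groups did not overlap, and the change was 0.70 ± 0.085 in log2 signal (SE), with a limma adjusted p of 3.91e-06 in the gene fit. A weaker probe set, 11728303_at, also lay above the Tag level in both groups, at 5.59, 5.61 and 5.76 with EPC-Exos against 5.16, 5.20 and 5.15 with PBS, a log2 change of 0.48 ± 0.11 (SE). The remaining pair of TGFA probe sets lay below the Tag level in both groups. One of them, 11745160_s_at, was higher by 0.35 ± 0.11 in log2 signal (SE), with an adjusted p of 0.0248 in the limma fit over all probe sets that was lost without EPC-Exos replicate 1, PBS replicate 1 or PBS replicate 2 (adjusted p 0.113, 0.0641 and 0.0626), and the other, 11745159_a_at, changed by 0.16 ± 0.12 and was not called. The 4 TGFA probe sets thus pointed the same way, with smaller changes at lower signal.

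NRG1 encodes the neuregulin 1 isoforms and is spread over 8 probe sets, of which 4 lay above the Tag level. The brightest, 11740347_x_at, had log2 signals of 6.30, 6.38 and 6.06 with EPC-Exos and 6.24, 5.90 and 6.09 with PBS. Its groups overlapped, the log2 change was 0.17 ± 0.11 (SE, 95% interval -0.07 to 0.41), and the limma adjusted p was 0.245. A probe set of this _x_at type, like one of the _s_at type, can also bind related transcripts. Among the other NRG1 probe sets above the Tag level, 11740346_a_at read 6.35, 6.36 and 6.15 with EPC-Exos against 5.99, 5.79 and 6.04 with PBS, and 11727215_a_at read 6.16, 6.38 and 6.24 with EPC-Exos against 6.00, 5.89 and 5.63 with PBS. The groups did not overlap in either of these, and both were called higher in the limma fit over all probe sets, with log2 changes of 0.35 ± 0.11 and 0.42 ± 0.12 (SE) and adjusted p of 0.0239 and 0.0104. The call of 11740346_a_at was lost without EPC-Exos replicate 1, EPC-Exos replicate 2 or PBS replicate 2 (adjusted p 0.0931, 0.0917 and 0.113), and that of 11727215_a_at without EPC-Exos replicate 2 or PBS replicate 3 (adjusted p 0.0619 and 0.0607). The fourth, 11740544_a_at, changed by 0.15 ± 0.12 and did not pass. When the _x_at and _s_at types were left out, NRG1 was represented by 11740346_a_at and was called in the gene fit (limma adjusted p 0.0122), so its call turned on which probe set stood for the gene.

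EREG and BTC encode epiregulin and betacellulin, both ligands of EGFR. All 4 EREG and both BTC probe sets had group means below the Tag level in both groups, so their signals could not be told from background. The brightest EREG probe set, 11732719_at, had log2 signals of 5.09, 4.80 and 4.55 with EPC-Exos and 4.38, 4.50 and 4.69 with PBS. These overlap, and the log2 change of 0.29 ± 0.14 (SE) was not called in the limma fit over all probe sets (adjusted p 0.136); without EPC-Exos replicate 3 it was 0.43 with an adjusted p of 0.038. The 4 EREG probe sets changed by 0.09 to 0.29. Before adjustment the limma p were 0.0491 for 11732719_at, 0.0415 for 11763822_at, 0.0477 for 11732720_a_at and 0.552 for 11732718_at. After adjustment 0 of the EREG probe sets were called. The BTC probe sets differed in sign, at -0.19 ± 0.12 for 11762566_at and 0.21 ± 0.11 for 11740532_s_at in log2 signal (SE), and neither was called. The ligand and receptor genes outside the member list, EGF, EPGN, NRG2, NRG3, NRG4 and ERBB4, also lay below the Tag level in both groups and below the filter; their log2 changes ran from -0.32 for NRG4 to 0.20 for NRG2, and 0 of the 6 were called in the limma fit over all probe sets (0 had an unadjusted p under 0.05).

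EGFR encodes the receptor of EGF, HBEGF and TGFA. Its brightest probe set, 11725103_s_at, had log2 signals of 8.69, 8.81 and 8.74 with EPC-Exos and 8.36, 8.47 and 8.37 with PBS. All EPC-Exos arrays exceeded all PBS arrays. The log2 change was 0.35 ± 0.068 (SE, 95% interval 0.20 to 0.49), with a limma adjusted p of 0.000439 in the gene fit. Of 8 EGFR probe sets 6 lay above the Tag level, and 4 of those 6 were called higher in the fit over all probe sets, with log2 changes of 0.24 to 0.35. The uncalled ones above the Tag level were 11742247_a_at, whose groups did not overlap (0.29 ± 0.11, adjusted p 0.0577; called with median centring of the arrays, adjusted p 0.0384, and with quantile normalization, 0.0348), and 11733760_a_at, at 6.05, 6.01 and 6.11 with EPC-Exos and 5.92, 5.92 and 6.19 with PBS. That last probe set gave 0.05 ± 0.11 with a 95% interval of -0.19 to 0.28. This overlaps the interval of the brightest one in the same fit, 0.20 to 0.49, and the difference between them was not tested. Without PBS replicate 2, 11725104_a_at became the probe set with the highest mean signal and the gene fit gave a log2 change of 0.19 (adjusted p 0.0668). The probe set 11725103_s_at itself was called in 6 of 6 fits over all probe sets that left out 1 array, at 0.32 to 0.38, as was 11725102_at. In the same fits 11725104_a_at was called only without EPC-Exos replicate 2 or PBS replicate 3 and 11751983_a_at only without PBS replicate 3, with adjusted p of at most 0.106 and 0.111 elsewhere. Both calls were also lost when no variance trend was fitted (adjusted p 0.0805 and 0.0552). Averaged over its 8 probe sets, EGFR changed by 0.20 (adjusted p 0.0328).

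ERBB2, the receptor partner without a ligand of its own, moved the other way. Its brightest probe set, 11736472_a_at, had log2 signals of 8.55, 8.72 and 8.60 with EPC-Exos, against 8.74, 8.96 and 8.91 with PBS. The groups did not overlap, but the highest EPC-Exos array and the lowest PBS array were close. The log2 change was -0.25 ± 0.075 (SE), with a limma adjusted p of 0.0118. The probe set 11750611_a_at fell too, with 7.19, 7.29 and 7.25 with EPC-Exos against 7.55, 7.43 and 7.58 with PBS, a log2 change of -0.27 ± 0.085 (SE). The other 3 were not called; the largest of their log2 changes were -0.13 ± 0.10 at 11755005_a_at and 0.08 ± 0.11 at 11762165_x_at (SE). The call in the gene fit was lost without EPC-Exos replicate 1 (-0.21, adjusted p 0.0642), without PBS replicate 2 (-0.20, adjusted p 0.0502) and with the mean of the 5 probe sets (-0.13, adjusted p 0.142). In the fit over all probe sets 11736472_a_at and 11750611_a_at were each called in 3 of the 6 fits leaving out 1 array. Both calls were lost without EPC-Exos replicate 1 (adjusted p 0.0994 and 0.0867) or EPC-Exos replicate 3 (0.0743 and 0.0593), that of 11736472_a_at also without PBS replicate 2 (0.0811), and that of 11750611_a_at also without PBS replicate 3 (0.07). With no variance trend fitted, 11736472_a_at was not called (adjusted p 0.0711). Its direction in the gene fit was the same in all 17 alternatives that gave it a value.

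ERBB3, the receptor for neuregulins, was at or near background. Its brightest probe set, 11721445_x_at, had log2 signals of 5.00, 4.38 and 4.47 with EPC-Exos and 5.08, 5.09 and 5.77 with PBS. The groups did not overlap by a narrow margin, the mean with EPC-Exos was below the Tag level, and 1 PBS array stood well above the others. In the limma fit over all probe sets it was lower by a log2 change of -0.69 ± 0.18 (SE, adjusted p 0.00669), the call was lost without EPC-Exos replicate 2 (adjusted p 0.0594), and the change was -0.46 without PBS replicate 3. With 64 added to the linear signals it was -0.23. The other ERBB3 probe sets lay below the Tag level in both groups, with log2 changes of -0.19 ± 0.13 and -0.11 ± 0.11 (SE) that were not called.

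ERRFI1, the feedback inhibitor also known as MIG6, had 1 probe set and the highest signals of the members' probe sets, which are not a measure of its amount against the others. The log2 signals were 11.69, 11.77 and 11.65 with EPC-Exos and 11.48, 11.54 and 11.58 with PBS. The arrays of the groups did not overlap, though the difference was small. The log2 change was 0.17 ± 0.044 (SE, 95% interval 0.08 to 0.26), with a limma adjusted p of 0.00391. It kept its direction and its call in all 16 alternatives that gave it a value in the gene fit. In the limma fit over all probe sets the call was lost without EPC-Exos replicate 2 (adjusted p 0.0526) and when no variance trend was fitted (adjusted p 0.126).

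Over the 37 probe sets, 12 were higher, 3 were lower and 22 were not called in the limma fit over all 49293 non-control probe sets, of which 28.4% were called, 13.6% higher and 14.8% lower. By the mean of all 6 arrays 19 of the 37 lay above the Tag level, with 11 higher, 2 lower and 6 not called; among all probe sets above it 39.9% were called, 19.2% higher and 20.7% lower. Of the 18 at or below it 2 were called, 11745160_s_at of TGFA and 11721445_x_at of ERBB3, whose mean was just under that level. All 3 lower calls belonged to ERBB2 and ERBB3, and all 12 higher calls to HBEGF, TGFA, NRG1, EGFR and ERRFI1, so 0 genes had probe sets called in both directions.

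**Figure D2:**
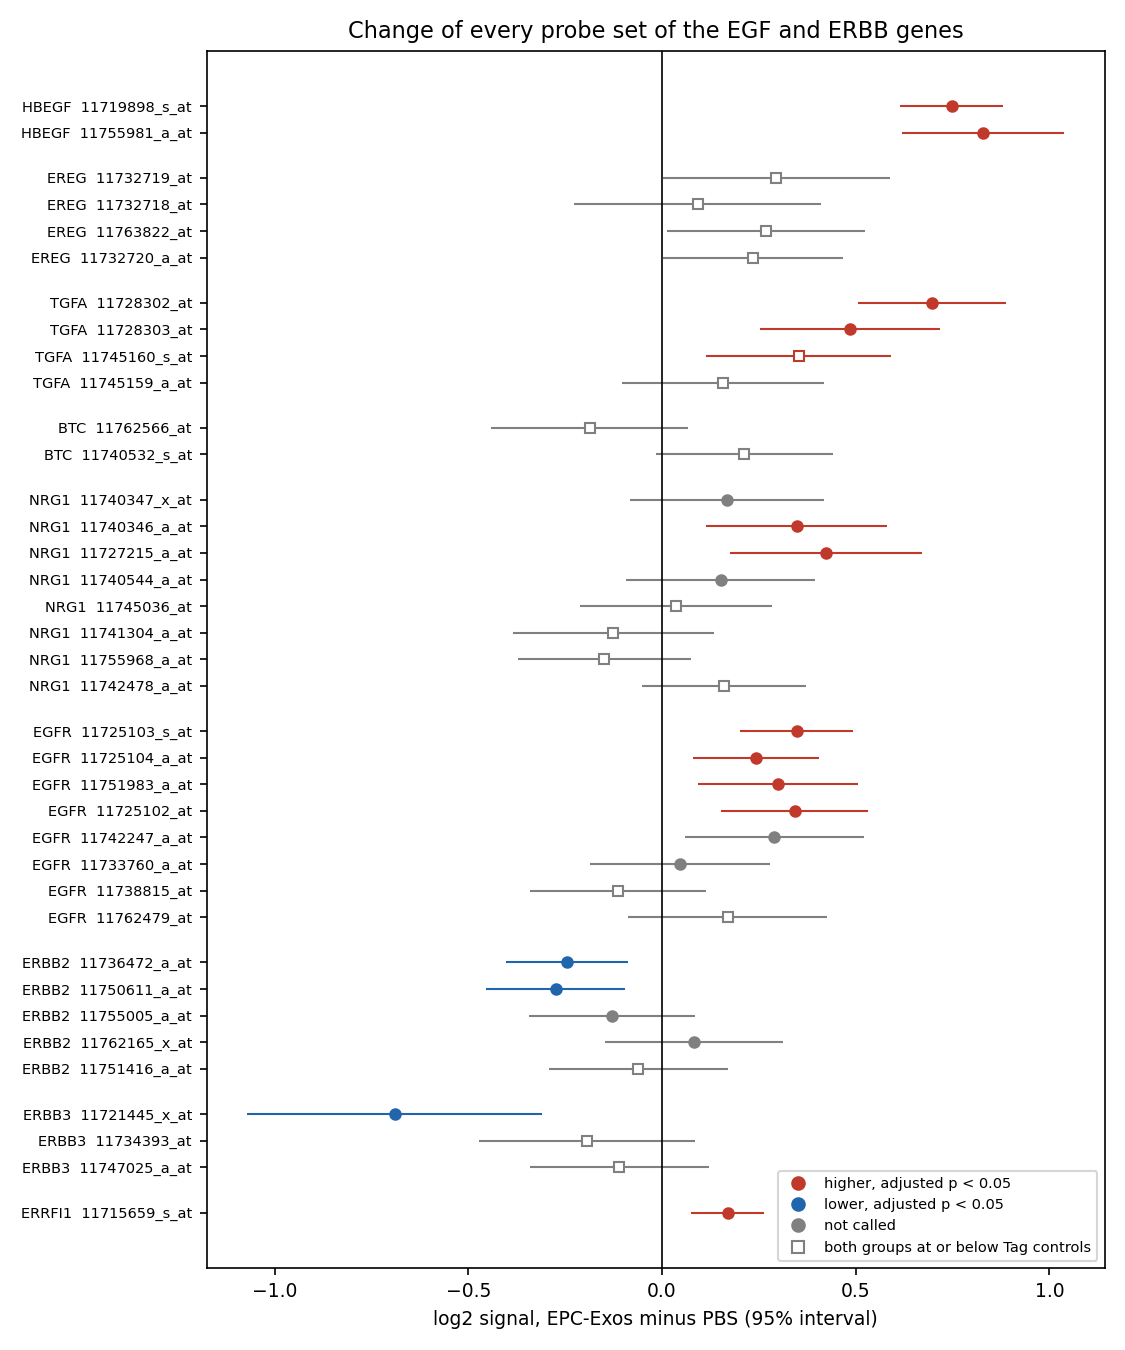
Log2 signal with EPC-Exos minus PBS for each of the 37 probe sets, grouped by gene and ordered by mean signal, with 95% intervals from the limma fit over all probe sets; red is higher, blue lower, grey not called, and open squares have both group means at or below the Tag level. HBEGF and the brightest TGFA probe set lie between 0.70 and 0.83, the called EGFR probe sets between 0.24 and 0.35, and the called ERBB2 probe sets at -0.25 and -0.27.

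**Figure D3:**
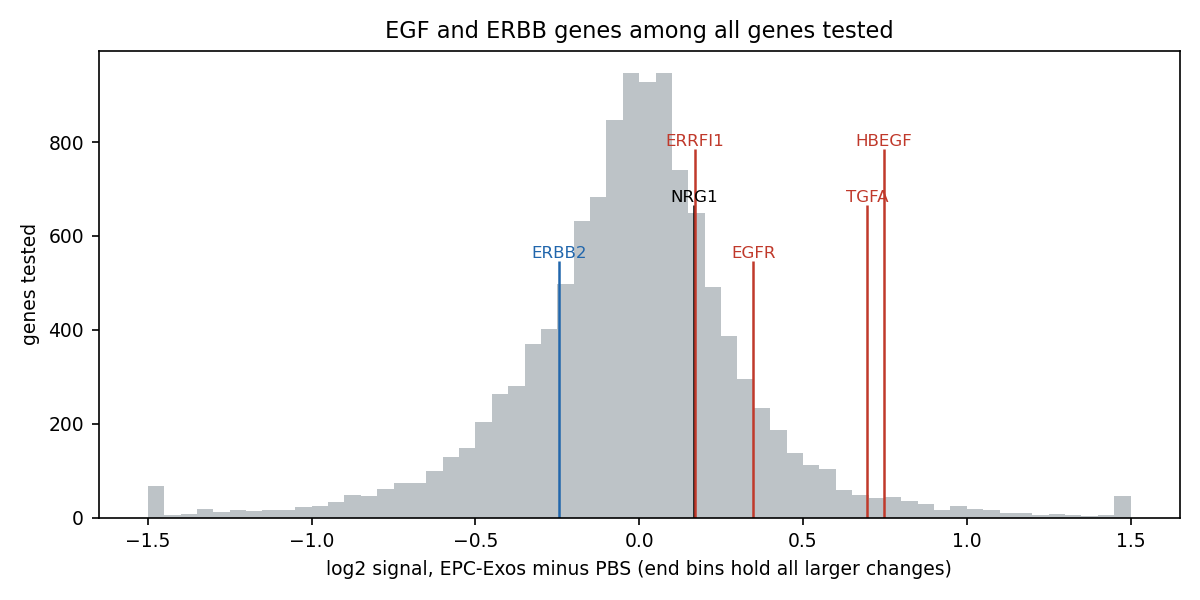
Distribution of the log2 change, EPC-Exos minus PBS, over the 11715 genes tested, in bins along the x axis with the number of genes on the y axis; vertical lines mark the 6 tested members, red for higher, blue for lower and black for not called. HBEGF at 0.75 and TGFA at 0.70 lie in the right tail, and ERBB2 at -0.25, NRG1 and ERRFI1 within the bulk of genes.

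To show the sequence around the start sites of the genes that moved, the RefSeq promoter windows of HBEGF, TGFA, EGFR, ERBB2 and ERRFI1 are given, each with 250 bases before and 50 after the annotated start in GRCh38.p14, read 5′ to 3′ along the gene. Capitals mark matches, on either strand, to the GC box GGGCGG, the TATA box TATAAA, the AP-1 site TGANTCA, the ETS site CCGGAAGT, the cyclic AMP response element TGACGTCA, the NF-kB site GGANTTTCC and the EGR site GCGTGGGCG, where N is any base. Matches that touch or overlap appear as 1 run of capitals.
HBEGF, chr5:140346554-140346853, minus strand: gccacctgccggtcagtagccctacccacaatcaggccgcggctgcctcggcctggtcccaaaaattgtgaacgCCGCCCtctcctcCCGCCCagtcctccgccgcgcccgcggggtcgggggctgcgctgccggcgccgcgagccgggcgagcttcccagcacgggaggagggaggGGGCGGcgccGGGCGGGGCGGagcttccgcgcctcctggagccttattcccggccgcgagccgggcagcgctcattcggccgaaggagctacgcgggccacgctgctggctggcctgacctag
TGFA, chr2:70553777-70554076, minus strand: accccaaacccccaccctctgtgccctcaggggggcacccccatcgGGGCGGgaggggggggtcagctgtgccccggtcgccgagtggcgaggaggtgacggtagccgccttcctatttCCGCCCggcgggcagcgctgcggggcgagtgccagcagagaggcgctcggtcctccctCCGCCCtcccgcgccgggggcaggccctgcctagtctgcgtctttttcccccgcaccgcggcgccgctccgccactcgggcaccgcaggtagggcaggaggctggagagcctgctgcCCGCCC
EGFR, chr7:55018767-55019066, plus strand: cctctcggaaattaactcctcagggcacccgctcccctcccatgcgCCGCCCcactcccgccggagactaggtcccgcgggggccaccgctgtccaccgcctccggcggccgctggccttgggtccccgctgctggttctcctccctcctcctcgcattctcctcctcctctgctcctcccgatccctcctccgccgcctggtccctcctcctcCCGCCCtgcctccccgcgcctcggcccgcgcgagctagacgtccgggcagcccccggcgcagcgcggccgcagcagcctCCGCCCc
ERBB2, chr17:39687844-39688143, plus strand: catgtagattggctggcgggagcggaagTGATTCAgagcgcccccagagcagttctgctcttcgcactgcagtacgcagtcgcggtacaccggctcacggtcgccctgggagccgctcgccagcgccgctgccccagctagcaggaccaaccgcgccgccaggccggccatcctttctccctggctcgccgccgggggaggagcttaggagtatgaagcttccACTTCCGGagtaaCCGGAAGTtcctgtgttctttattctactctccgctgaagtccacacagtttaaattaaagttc
ERRFI1, chr1:8026260-8026559, minus strand: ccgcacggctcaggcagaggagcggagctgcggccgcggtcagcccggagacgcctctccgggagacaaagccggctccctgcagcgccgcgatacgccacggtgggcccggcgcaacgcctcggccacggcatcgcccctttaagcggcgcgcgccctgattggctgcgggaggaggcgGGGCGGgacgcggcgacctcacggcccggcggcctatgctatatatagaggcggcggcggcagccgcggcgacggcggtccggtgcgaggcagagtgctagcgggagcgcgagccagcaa
The windows of the 4 genes that rose held 5 (HBEGF), 4 (TGFA), 3 (EGFR) and 1 (ERRFI1) GC boxes, and 0 matches to the other motifs. The ERBB2 window held 0 GC boxes, 2 ETS sites facing opposite ways and 1 match to the AP-1 letters. That match reads TGATTCA, with T at the open base and not the C or G of the usual AP-1 site. Of all 35116 promoter windows, 45% held a GC box, 15.8% held 3 or more and 4.14% held an ETS site. The looser letters TGANTCA matched in 7.71%. A TATA box was in 11.5%, a cyclic AMP response element in 1.85%, an NF-kB site in 1.64% and an EGR site in 0.795%. The GC content was 75% for HBEGF, 75.3% for both TGFA and EGFR and 74.7% for ERRFI1, against a median of 58.7% over all windows, and 60.7% for ERBB2; a GC box is more likely by composition alone in GC-rich sequence. RefSeq gave TGFA and EGFR a further window each, with 0 GC boxes in either and 2 AP-1 sites and 2 TATA boxes in that of EGFR. In all, 8 of the 10 member genes had a window. Of those not shown, AREG, which was not measured, and BTC, which was not called, held 1 GC box each. EREG, also not called, held 0 GC boxes and 1 TATA box. The AREG window further held 1 cyclic AMP response element and 1 TATA box. No link between a motif and the direction of change was tested. A match is a match of letters, and the arrays measured no factor binding.

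The other genes of the pathway were taken from lists by role, and 57 of the 80 listed genes had a probe set and passed the filter. Of these, 9 were higher, 19 lower and 29 not called, so 49.1% were called, the same share as over all genes tested. Their median log2 change was -0.06. Among 11 genes of ligand shedding, 1 rose, 4 fell and 6 were not called. The protease gene ADAM19 rose, with 8.58, 8.60 and 8.64 in log2 signal with EPC-Exos against 7.26, 7.23 and 7.44 with PBS, a log2 change of 1.30 ± 0.077 (SE, limma adjusted p 7.8e-10). Only that probe set of the 4 for ADAM19 was called, and their mean changed by 0.34. TIMP3, an inhibitor of ADAM proteases, fell, with 7.16, 7.43 and 7.18 with EPC-Exos against 8.33, 8.30 and 8.37 with PBS. All 3 of its probe sets were called lower, with a log2 change of -1.07 ± 0.084 (SE) at the brightest and -0.44 without _x_at and _s_at probe sets. BACE1, a membrane protease known to cleave NRG1, fell by 0.69 ± 0.072 (SE) in log2 signal, or by 0.22 over the mean of its probe sets. ADAM17, the main sheddase of HBEGF and TGFA, fell by 0.22 ± 0.062 in log2 signal at its brightest probe set (SE, limma adjusted p 0.00831). Of its 4 probe sets 1 was called, and their mean gave -0.18 (adjusted p 0.0572); the gene was named after its values were seen.

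Among 17 genes of receptor inhibition and turnover, 3 rose, 5 fell and 9 were not called. LRIG1, a membrane protein that promotes the breakdown of ERBB receptors, fell most. Its log2 signals were 6.37, 6.39 and 6.31 with EPC-Exos and 7.80, 7.79 and 7.90 with PBS, a 2.78-fold fall (log2 change -1.48 ± 0.082, SE, limma adjusted p 3.53e-10). It was called at 1 of its 2 probe sets, and their mean changed by -0.87. CBLB, a ubiquitin ligase that marks active receptors for breakdown, had 7.81, 7.80 and 7.69 with EPC-Exos against 8.54, 8.50 and 8.53 with PBS. That is a log2 change of -0.76 ± 0.071 (SE), with 2 of 4 probe sets called lower and -0.31 for their mean. LRIG3, of the same family as LRIG1, was lower at all 4 of its probe sets, by a log2 change of -0.53 ± 0.11 (SE) at the brightest (-0.30 with 64 added to the linear signals).

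Among 12 adaptor and docking genes, 3 rose, 5 fell and 4 were not called. EPS8, a substrate of EGFR that acts on the actin skeleton, fell by 0.78 ± 0.060 in log2 signal (SE) and SOS2, an exchange factor for RAS, by 0.47 ± 0.084, while PTPN11, the phosphatase SHP2, rose by 0.46 ± 0.064. The groups did not overlap in any of these 3, as in 55.7% of all genes tested. These 3 were picked as the largest called changes of their list, so this adds nothing to their calls. In the RAS to ERK cascade, 6 of 13 listed genes could be tested, of which MAP2K1, the kinase MEK1, rose at all 3 of its probe sets (0.44 ± 0.043 in log2 signal, SE) and MAPK3, the kinase ERK1, fell at its only one (-0.39 ± 0.070). Among 11 genes of the PI3K, PLC and STAT arms, 1 rose, 4 fell and 6 were not called. PIK3R3, a regulatory subunit of PI3K, had log2 signals of 8.22, 8.24 and 8.29 with EPC-Exos against 9.82, 9.95 and 9.99 with PBS. All 5 of its probe sets were lower, with a log2 change of -1.67 ± 0.065 (SE, limma adjusted p 3.5e-12) at the brightest and -0.73 for their mean. The subunit gene PIK3R1 was lower at 7 of 8 probe sets (-0.71 ± 0.093) and the kinase gene PDPK1 at 4 of 6 (-0.35 ± 0.061; -0.23 for the mean of its probe sets).

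**Figure D4:**
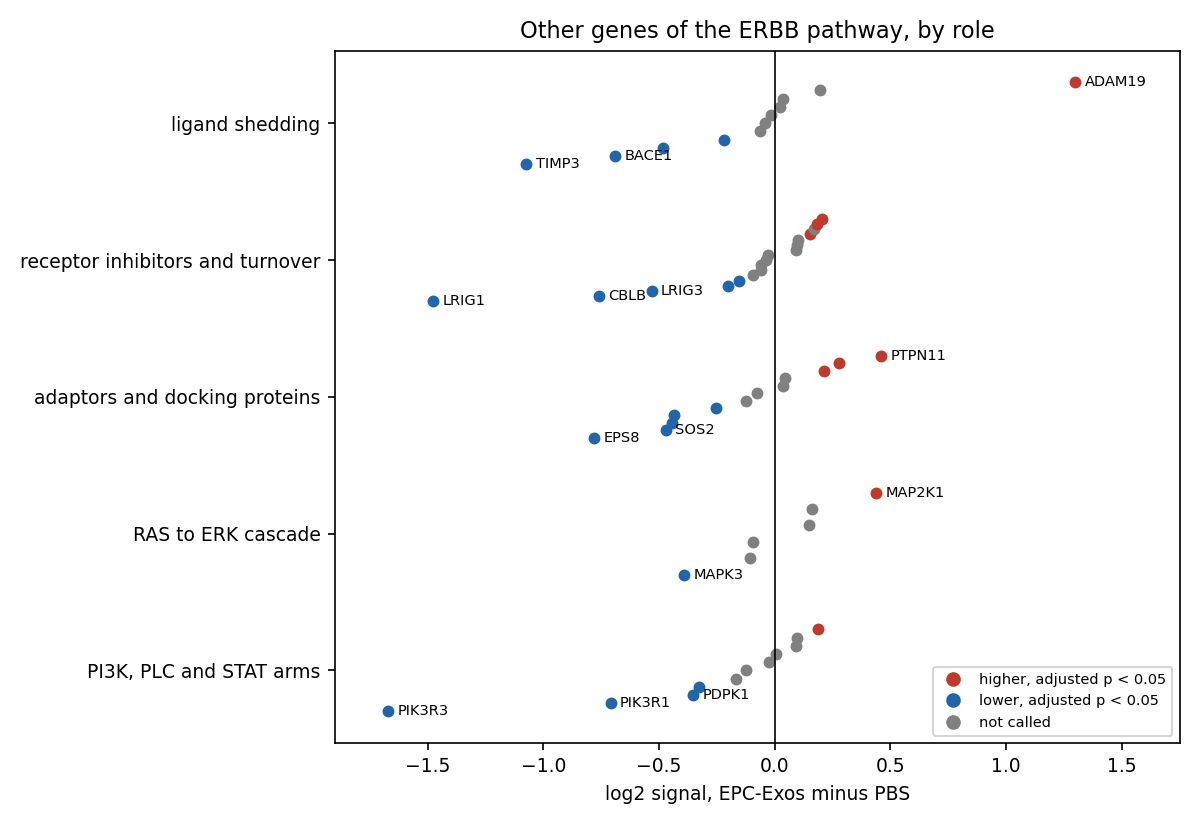
Log2 signal with EPC-Exos minus PBS for the 57 tested pathway genes outside the member list, 1 point per gene in rows by role; red is higher, blue lower and grey not called, and the genes named by the fixed rule are labelled. LRIG1 at -1.48 and PIK3R3 at -1.67 lie farthest left and ADAM19 at 1.30 farthest right.

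Some markers of other cell types also differed between the groups, in the limma fit over all probe sets. That fit called 28.4% of all non-control probe sets, and 39.9% of those above the Tag level by the mean of all arrays. These shares stand beside each count of markers here. Of 7 measured epithelial markers 0 were higher, 2 lower and 5 not called. Their summed linear signal was 4678 to 4836 with EPC-Exos and 6811 to 7509 with PBS, and most of that gap was KRT18, a keratin gene; without it the sums were 1115 to 1171 with EPC-Exos and 1210 to 1373 with PBS. The other keratin gene called lower was KRT8, by -0.21 ± 0.060 in log2 signal (SE, adjusted p 0.0114). EPCAM had the same mean log2 signal of 5.61 in both groups.

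The summed linear signal of the 8 fibroblast and mural markers was 2281 to 2510 with EPC-Exos and 3170 to 3600 with PBS, with 5 above the Tag level with EPC-Exos and 6 with PBS, and PDGFRA and COL1A2 at or below it in both. Of the 8, 1 was higher, 4 lower and 3 not called, beside 28.4% called over all probe sets. The collagen gene COL1A1 made up most of the gap, with mean log2 signals of 10.40 with EPC-Exos and 11.07 with PBS. On the log2 scale the falls were wider in the matrix genes DCN, at 5.40 with EPC-Exos and 7.61 with PBS, and LUM, at 3.67 and thus below the Tag level with EPC-Exos and 5.97 with PBS. PDGFRB, a receptor of platelet-derived growth factor, fell too, with 6.46 with EPC-Exos and 7.75 with PBS, while THY1 rose, with 9.67 with EPC-Exos and 9.44 with PBS.

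The 5 measured leukocyte markers summed to 433 to 474 with EPC-Exos and 296 to 307 with PBS in linear signal. This gap was nearly all CD68, a lysosomal membrane protein gene, which was the only one called, with mean log2 signals of 8.47 with EPC-Exos and 7.73 with PBS. Without CD68 the sums were 89.5 to 104 with EPC-Exos and 86.6 to 93.9 with PBS. PTPRC, CD14 and ITGAM were at or below the Tag level in both groups. The endothelial sum was 1886 to 1911 with EPC-Exos and 1587 to 1810 with PBS, and 1 of the 10 endothelial markers was called, TIE1, higher by 0.48 ± 0.11 in log2 signal (SE). The part of these shifts in the changes of the EGF and ERBB genes was not tested.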

How the data were processed

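RNA of 6 HMEC-1 samples, 3 with EPC-Exos and 3 with PBS, was labelled with biotin and hybridised to Affymetrix 3' IVT arrays. The deposited values are log2 signals, 1 per probe set and array, running from 2.47 to 14.52; the log2 scale was read from that range. The submitters' processing notes list MAS5 but give it no role; how background was corrected and arrays were scaled is not given in the sources used here, so the deposited scaling was kept. Of 49395 probe sets, 44988 had 1 gene symbol in the platform annotation, 1832 several, 2473 none and 102 were controls. The brightest probe set by mean over the arrays stood for each gene, which was tested if that mean was in the upper range above the 40th percentile, controls aside. A second fit took all non-control probe sets with no filter. Both used limma 3.58.1 in R 4.3.3 (lmFit, eBayes with variance trend, group as the only term), two-sided, with Benjamini-Hochberg adjustment and calls under 0.05. Errors of changes are limma's standard errors. The number of arrays limits the precision. As a check of the code, the fit was run on simulated data with independent noise and far fewer changed genes than were called here. It does not show how the fit behaves at the share of genes called here.

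Groups came from the sample titles. The alternatives were 3 scalings, offsets of 16 and 64 on the linear scale, other filters, averaging of the probe sets per gene, no _x_at or _s_at probe sets, no variance trend, the replicate number as a block, the study's threshold and leaving out each array. Named genes are all members, and of each pathway list up to 3 called genes by size of change; ADAM17 and the genes of the marker and ligand lists were named beyond that. The members and lists were chosen with earlier results of these data known. Promoter windows are from RefSeq, and the motifs searched in them were chosen after the data were seen. Batches are not labelled, so treatment and any batch that follows the groups cannot be told apart.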

Additional observations from a re-analysis of the deposited data

How the results depend on the processing

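HBEGF and TGFA kept direction and call in every alternative that gave them a value (17 and 15), with log2 changes of 0.67 to 0.83 and 0.48 to 0.74. TGFA lay below the filter, and so gave no value, at the 60th percentile and with the mean of its probe sets. The study's threshold gave 1159 genes in place of 5748 (461 higher, 698 lower), 2 members called, 2 higher and 0 lower, 8 pathway genes and 4 probe sets of members; its fold limit makes these smaller. With no filter 2 members were lower, ERBB3 being added. At the 60th percentile 7 probe sets of members were called, since fewer passed the filter. With probe sets averaged per gene 3 members were called and 0 were lower, and only 4 members were tested. Leaving out 1 array gave 3 to 5 members called, 0 to 1 lower and 9 to 13 probe sets called against 15; the lowest count of members came without PBS replicate 2, when EGFR and ERBB2 were lost, and the lowest count of probe sets without EPC-Exos replicate 1. The cause of these shifts was not tested. Changed calls of single members and of their probe sets are given with each gene above, except under the replicate block. Median centring of the arrays put 49.1% of called genes higher, against 44.3% as deposited, and gave a median change over all genes of 0.01, against -0.01 as deposited. Same-numbered arrays of the groups deviated from their group means with correlations of 0.20, 0.18 and 0.08, each the best match of its array, a hint from the data and not from the labels. With the replicate block 6118 genes, 5 members and 16 probe sets of members were called, and no member's call changed in the gene fit; among their probe sets 11742247_a_at of EGFR gained a call (adjusted p 0.0374).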
